A study of Homo sapiens with 26 samples.

Results

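The ATP-binding cassette (ABC) transporter family was taken as every protein-coding gene whose symbol is ABC, a letter from A to G and a number, together with CFTR, which is ABCC7 by the same scheme. TAP1 and TAP2 were left out. This gave 46 genes of the 41078 in the deposited table. ABC proteins bind and hydrolyse ATP in a pair of conserved nucleotide-binding domains. Most of them use this energy to move a substrate across a membrane, among them lipids, bile salts, peptides, heme, conjugated metabolites and drugs, while CFTR is an anion channel and the E and F subfamilies are soluble proteins of translation without a membrane part. In pancreatic ductal adenocarcinoma the family is known above all for exporters of the ABCB, ABCC and ABCG subfamilies, which carry drugs or their metabolites out of cells, and ABCC4 and ABCC5 are known to accept phosphorylated nucleoside analogs such as those formed from gemcitabine.

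The libraries came from 26 single cell-derived cell lines (SCDCLs), each grown by limited dilution from 1 cell of BxPC3 or Panc-1, and each SCDCL gave 1 library of polyadenylated RNA with no replicate library. Both are established human lines that model pancreatic ductal adenocarcinoma, BxPC3 of the classical and Panc-1 of the basal-like subtype, and both were kept in DMEM with serum. The labels put 12 libraries under BxPC3 and 14 under Panc-1 and name gemcitabine as treatment for all of them, but in the methods gemcitabine appears in viability assays that are separate from the sequencing. How each SCDCL responded to gemcitabine was not analysed here.

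SMAD4 is lost by deletion in BxPC3 and retained in Panc-1. It went against the label of 7 libraries labelled BxPC3, where it was expressed, and of 7 libraries labelled Panc-1, where it was not. The libraries were therefore compared both by label and by SMAD4 itself, and no library was moved from 1 label to the other. In 12 libraries, 5 labelled BxPC3 and 7 labelled Panc-1, SMAD4 was at most 0.044 TPM (a share of the library's transcripts after division by transcript length). They are called SMAD4-low here. In the other 14 libraries, 7 of each label, it was between 28.1 and 52.2 TPM, and they are called SMAD4-high. VIM, the mesenchymal filament vimentin, was at 1.42 to 73.2 TPM in the SMAD4-low and at 3047 to 4527 TPM in the SMAD4-high libraries. CDH1, the epithelial cadherin, was at 90.8 to 198 TPM and 0.338 to 7.74 TPM. Of 16008 genes tested, 6235 differed between the sets, so a difference that goes with SMAD4 and one that goes with the rest of the profile cannot be told apart. Library totals ran from 27035724 to 34945608 estimated counts. Of 8 markers of immune, endothelial and stromal cells, CD14 was higher in the SMAD4-low libraries (median 9.77 against 0.757 TPM, log2 fold change 3.21, adjusted p = 2.14e-05). COL1A1 (8.92 to 26.5 and 2.06 to 38.5 TPM) and PECAM1 (up to 6.07 and 5.38 TPM) were detected in both sets and not called. DCN reached at most 1.07 TPM, and PTPRC, CD3E, VWF and LUM stayed under 1 TPM in every library. The 8 together summed to 14 to 45.3 TPM in the SMAD4-low and 7.76 to 41.5 TPM in the SMAD4-high libraries. Their part in the results below was not tested.

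Promoter windows of 4 members are shown. These genes were among those that differed most between the sets, while the windows used here differ in base composition. The windows of ABCG2 and ABCA12 are poor in CpG, and those of ABCC4 and ABCA3 are rich in it. Where a gene has several starts, the one nearest its 5′ end was taken, and which start was in use was not tested. Each window is the 250 bases before the RefSeq start in GRCh38.p14. It is read 5′ to 3′ on the minus strand of the chromosome, with every CpG dinucleotide in capitals. The windows lie at chr4:88231627-88231876 for ABCG2, chr2:215138627-215138876 for ABCA12, chr13:95301452-95301701 for ABCC4 and chr16:2340729-2340978 for ABCA3.
ABCG2: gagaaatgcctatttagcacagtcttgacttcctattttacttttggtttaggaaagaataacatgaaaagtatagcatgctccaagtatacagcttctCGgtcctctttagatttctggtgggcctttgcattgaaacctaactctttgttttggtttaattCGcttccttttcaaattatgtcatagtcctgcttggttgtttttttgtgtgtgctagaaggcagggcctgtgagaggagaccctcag
ABCA12: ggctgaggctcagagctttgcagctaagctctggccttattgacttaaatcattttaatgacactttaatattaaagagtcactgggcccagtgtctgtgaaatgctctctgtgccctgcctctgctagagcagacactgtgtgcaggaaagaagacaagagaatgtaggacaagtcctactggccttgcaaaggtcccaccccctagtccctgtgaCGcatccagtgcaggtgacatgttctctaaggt
ABCC4: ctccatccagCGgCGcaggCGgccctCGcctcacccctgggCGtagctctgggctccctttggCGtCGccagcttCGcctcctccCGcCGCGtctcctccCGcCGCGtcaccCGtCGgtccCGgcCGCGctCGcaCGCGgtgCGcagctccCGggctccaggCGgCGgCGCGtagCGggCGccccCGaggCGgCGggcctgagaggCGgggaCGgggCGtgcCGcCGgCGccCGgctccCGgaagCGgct
ABCA3: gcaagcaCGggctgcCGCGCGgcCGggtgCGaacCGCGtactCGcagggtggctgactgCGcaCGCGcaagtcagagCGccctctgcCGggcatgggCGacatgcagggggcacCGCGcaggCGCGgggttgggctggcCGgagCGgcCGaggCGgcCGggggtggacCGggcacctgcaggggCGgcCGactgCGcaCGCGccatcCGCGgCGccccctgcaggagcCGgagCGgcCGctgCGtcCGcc
The ABCG2 window held 2 CpG and was 40.0% G or C. The ABCA12 window held 1 CpG at 48.8% G or C. ABCC4 and ABCA3 held 42 and 38 CpG at 80.4% and 79.2% G or C.

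Of the 46 members, 36 reached 1 TPM in at least 1 library. Between 25 and 32 did so in a SMAD4-low library, with a median of 30, and between 23 and 27 in a SMAD4-high library, with a median of 25. ABCE1, which recycles ribosomes, had the highest median of the family in both sets, at 128 TPM in the SMAD4-low and 92.3 TPM in the SMAD4-high libraries. Behind it the order of the medians differed. In the SMAD4-low libraries the next medians included those of ABCF3 (52.8 TPM) and the peroxisomal ABCD3 (49.7 TPM), whose ranges overlapped. In the SMAD4-high libraries it continued with 4 exporters, ABCG2 (86.3 TPM), ABCC3 (70.6 TPM), ABCC1 (60.9 TPM) and ABCC4 (52.7 TPM), whose ranges also overlapped. At the other end, ABCC12, ABCD2, ABCC8 and ABCG5 stayed at or below 0.148 TPM in every library.

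**Figure D1:**
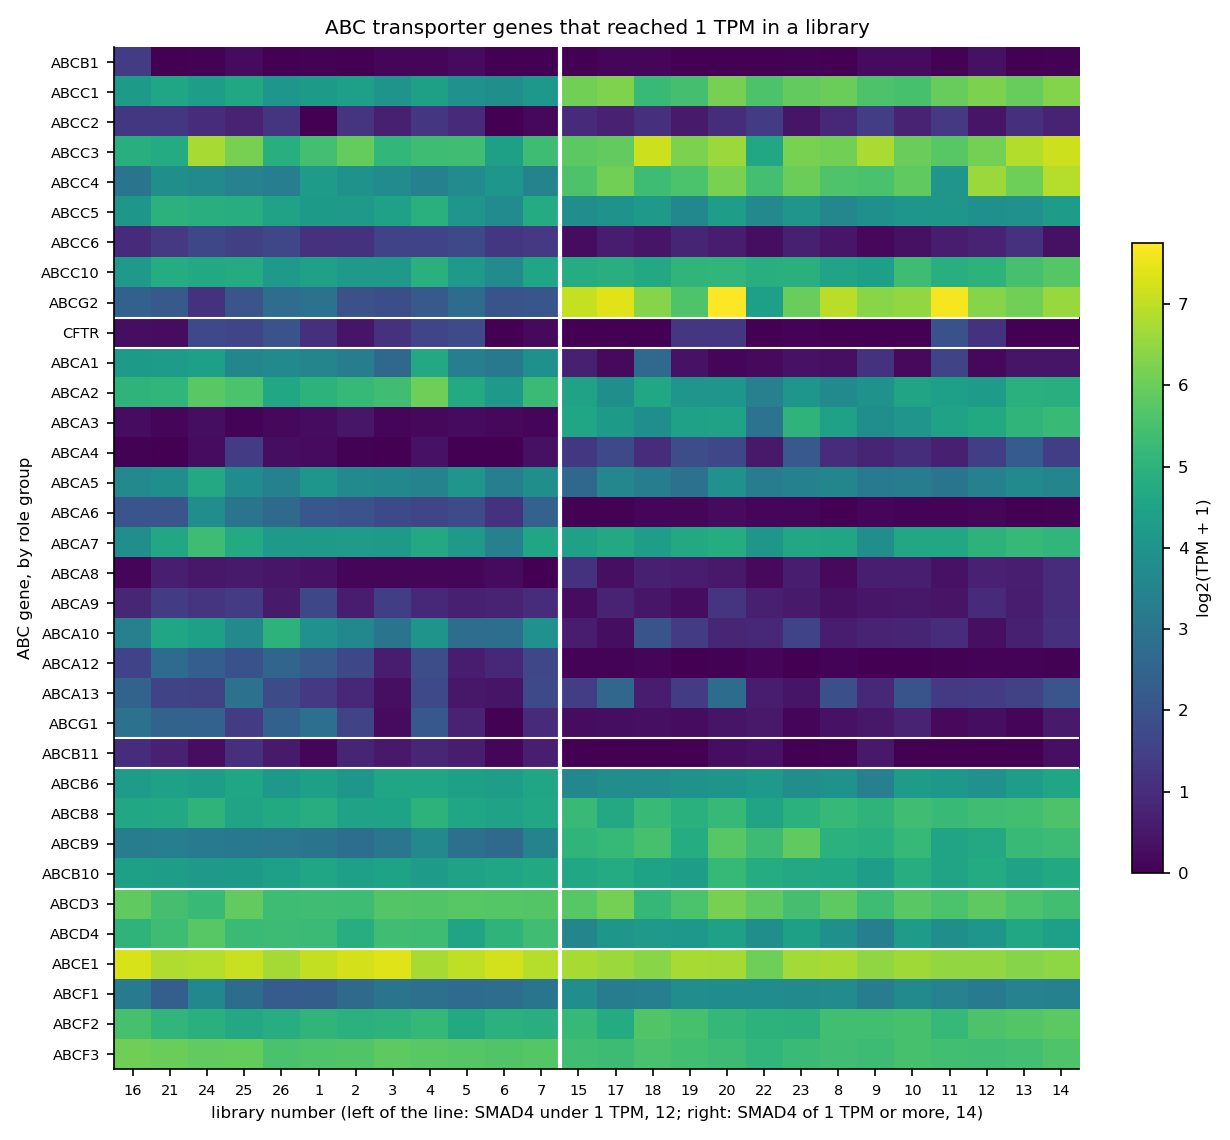
Level of 34 of the 36 members that reached 1 TPM in at least 1 library, as log2(TPM + 1), with 1 column per library (number below) and genes ordered by role group. The white vertical line separates the 12 SMAD4-low libraries from the 14 SMAD4-high libraries; ABCA3, ABCG2, ABCC1 and ABCB9 are brighter on the right, and ABCA1, ABCA6, ABCA10 and ABCA12 on the left.

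The sets were compared by the quasi-likelihood test of edgeR on the estimated counts of all genes, with Benjamini-Hochberg adjustment over all genes tested. A gene is said to be called when the adjusted p was under 0.05 and the absolute log2 fold change over 1. Fold changes are SMAD4-low minus SMAD4-high and are given with their standard error (SE). With 1 library per SCDCL the p-values measure only the spread between these libraries. In bulk RNA, fewer cells expressing a gene and less RNA per cell cannot be told apart. Of the 46 members, 37 had enough counts to be tested and 18 were called, where 38.9% of all genes tested were called. Of the 18, 10 were higher in the SMAD4-low libraries and 8 were lower, against 20% and 19% of all genes. A further 13 members had an adjusted p under 0.05 with a smaller change, so that 31 of 37 passed the adjusted p, as 76.7% of all genes did, and 6 members did not pass. The median absolute log2 fold change was 0.98 over the 37 members and 0.74 over all genes tested. In 9 members the TPM ranges of the sets did not overlap, which was so for 30.0% of all genes tested. These counts lay near those of all genes.

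**Figure D2:**
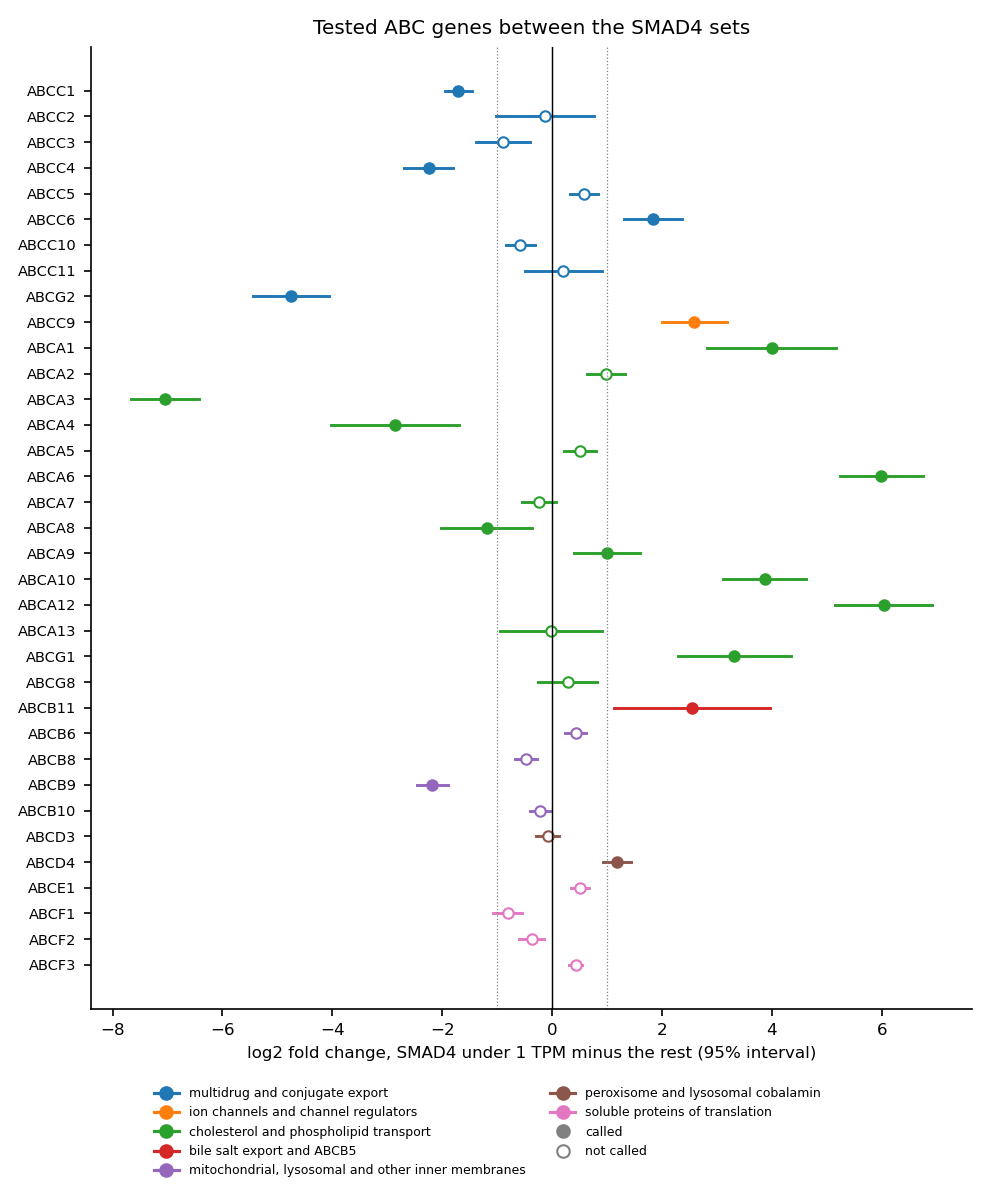
Log2 fold change (SMAD4-low minus SMAD4-high, x axis) with its 95% confidence interval for 35 of the 37 tested members, coloured by role group. Filled points are called, open points are not, and dotted lines mark a change of 1 in either direction; the lipid transporters span from -7.04 for ABCA3 to 6.03 for ABCA12, while the 4 translation factors lie between -0.81 and 0.51.

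The 6 ABCC genes linked to gemcitabine were all detected. ABCC1 and ABCC4 were called, both lower in the SMAD4-low libraries. ABCC3, ABCC5 and ABCC10 passed the adjusted p with changes under 1, and ABCC2 did not pass. The share called lay near the 38.9% of all genes. The median log2 fold change of the 6 was -0.73, beside -0.012 over all genes tested.

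ABCC1 (MRP1, chromosome 16, 15949138 to 16143257, GRCh38), an exporter of glutathione conjugates, was at 13.6, 17.6 and 23.5 TPM (lowest, median and highest) in the SMAD4-low libraries. It was at 37.5, 60.9 and 78.1 TPM in the SMAD4-high libraries. The ranges did not overlap, and ABCC1 was 3.26-fold lower in the SMAD4-low set (log2 fold change -1.71 ± 0.12, adjusted p = 1.91e-13). A row of the table that the reference does not name, ENSG00000278183, fell when ABCC1 rose across the 30 resampled estimates that the authors deposited for each library (r = -0.69 over 780 deviations), so both rows divide reads between them. That row stood at 15.4 to 27.7 TPM and 63.8 to 132 TPM in the sets, above ABCC1 in median. Summed, the pair gave medians of 40.6 and 158 TPM and a log2 fold change of -1.97 ± 0.11, so that the TPM of ABCC1 alone is a lower limit for its transcripts if the row belongs to it.

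ABCC4 (MRP4, chromosome 13, 95019835 to 95301475), which exports cyclic nucleotides and nucleotide analogs, was at 7.11, 12.2 and 18.1 TPM in the SMAD4-low libraries. In the SMAD4-high libraries it was at 15.4, 52.7 and 116 TPM. The sets overlapped through library 11 alone, since the next lowest SMAD4-high library was at 39.5 TPM. The log2 fold change was -2.24 ± 0.22 (adjusted p = 2.89e-10). The assignment of reads to ABCC4 was uncertain. The SD over the resampled estimates of a library was 0.53 on the log2(CPM + 1) scale in the SMAD4-low and 0.24 in the SMAD4-high libraries, against an SD between libraries of 0.42 and 0.67. Differences among SMAD4-low libraries in ABCC4 were therefore within the error of its quantification, while the difference between the sets was larger than either SD.

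ABCC3 (MRP3, chromosome 17, 50634777 to 50692253), an exporter of glucuronides at the basolateral membrane, had a wide range in both sets, 20.1, 39.4 and 107 TPM in the SMAD4-low libraries. In the SMAD4-high libraries it was at 24.2, 70.6 and 143 TPM. Its log2 fold change was -0.89 ± 0.24 (adjusted p = 0.0016), and -1.03 without library 24, the highest SMAD4-low library, where it would be called. ABCC5 (MRP5, chromosome 3, 183919934 to 184017939), like ABCC4 an exporter of cyclic nucleotides and nucleotide analogs, went the other way. It was at 12.4, 20.8 and 30.3 TPM and at 11, 14.2 and 19.2 TPM, with a log2 fold change of 0.58 ± 0.12 (adjusted p = 0.000109). ABCC10 (MRP7, chromosome 6, 43427366 to 43450427) was at 12.2, 19.1 and 29.4 TPM and at 19.9, 28.7 and 51.0 TPM, with a log2 fold change of -0.58 ± 0.13 (adjusted p = 0.000211). ABCC5 and ABCC10 thus differed by less than 1.5-fold in opposite directions, with overlapping ranges. ABCC2 (MRP2, chromosome 10, 99782640 to 99852594), the apical exporter of conjugates, was near 1 TPM in both sets, between 0 and 1.41 TPM and between 0.345 and 1.66 TPM. Its log2 fold change was -0.13 with a 95% interval from -1.03 to 0.77.

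Of the other multidrug exporters, ABCG2 ranked 2 and ABCB1 40 by median among the 46 members in the SMAD4-high libraries. In the SMAD4-low libraries they ranked 23 and 41. ABCG2 (BCRP, chromosome 4, 88090150 to 88231628), which effluxes many drugs as well as urate and porphyrins, was at 1.19, 3.33 and 6.51 TPM in the SMAD4-low libraries. In the SMAD4-high libraries it was at 19.9, 86.3 and 214 TPM. Every SMAD4-high library lay above every SMAD4-low library, and ABCG2 was 27-fold lower in the SMAD4-low set (log2 fold change -4.75 ± 0.34, adjusted p = 5.59e-13). ABCB1 (P-glycoprotein, MDR1, chromosome 7, 87503017 to 87713323) was not tested for want of counts. It was at most 0.285 TPM in the SMAD4-high libraries and at most 0.182 TPM in 11 SMAD4-low libraries, and reached 1.62 TPM in library 16. ABCC6, a transporter mutated in pseudoxanthoma elasticum, was called higher in the SMAD4-low libraries at a low level (median 1.6 against 0.438 TPM, log2 fold change 1.84 ± 0.26). Its row divided reads with ENSG00000275331, which the reference does not name either (r = -0.73), and the sum of both rows gave 1.47 ± 0.19. ABCC11 did not pass and ABCC12 was not tested, both under 1 TPM throughout. Of the 11 genes of this export group, 9 were tested, of which 1 was higher and 3 were lower in the SMAD4-low libraries, a share near the 38.9% of all genes.

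**Figure D3:**
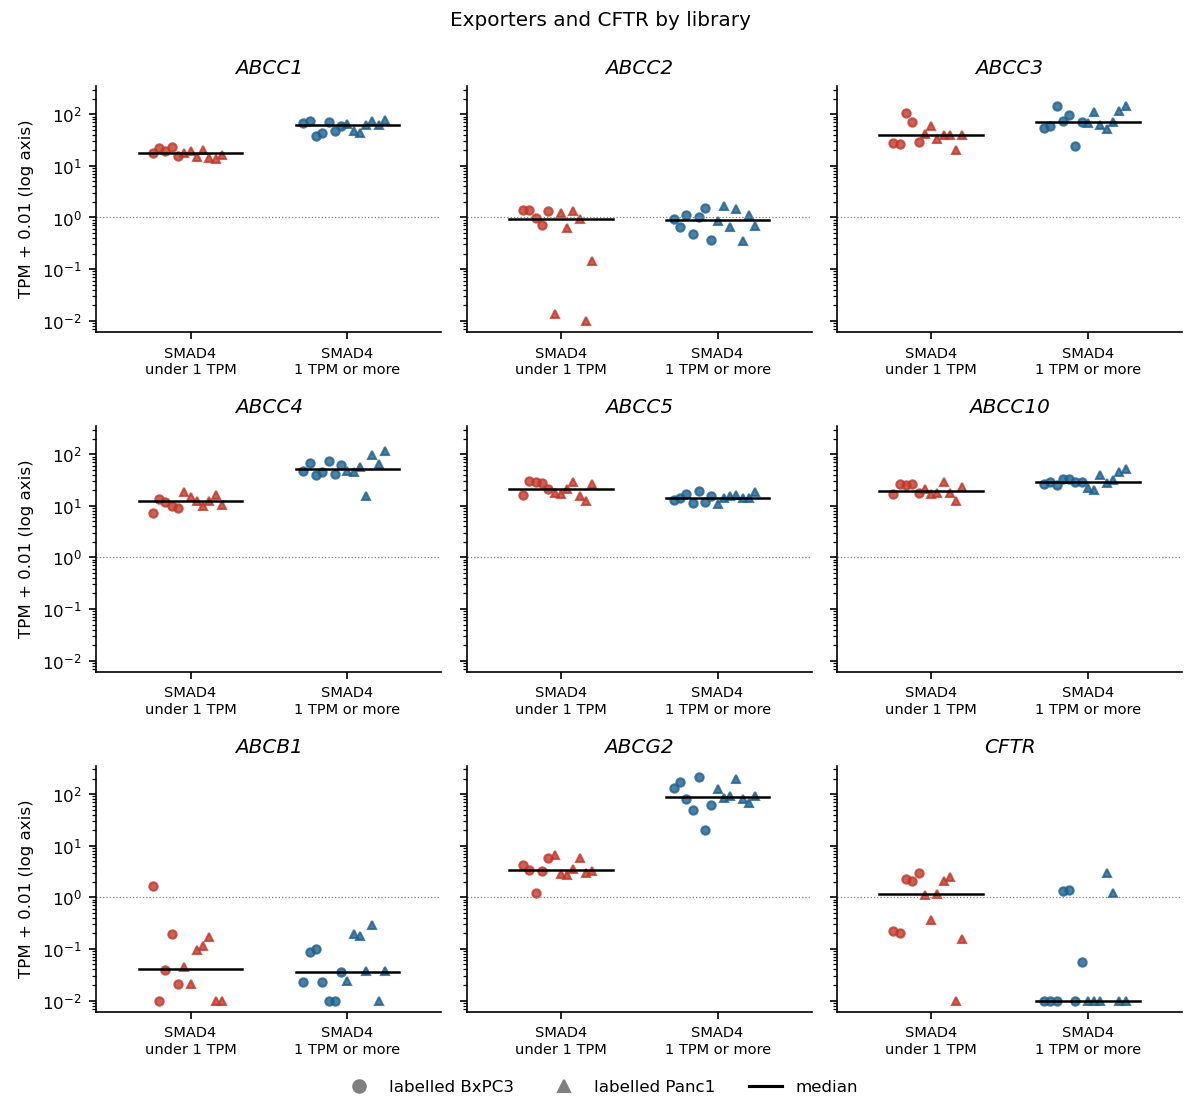
TPM plus 0.01 on a log axis for the 6 gemcitabine-linked ABCC genes, ABCB1, ABCG2 and CFTR, with 1 point per library, circles for libraries labelled BxPC3, triangles for those labelled Panc-1, and a line at the median of each SMAD4 set. ABCC1 and ABCG2 separate the sets without overlap, circles and triangles mix within each set, and ABCB1 is under 1 TPM in every library but library 16.

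Summed, transcripts of the 46 members came to 574, 681 and 847 TPM (lowest, median and highest) in the SMAD4-low and 625, 876 and 1127 TPM in the SMAD4-high libraries. The export group held 13.3, 17.9 and 23.2% of the sum in the SMAD4-low libraries. In the SMAD4-high libraries it held 28.1, 39.7 and 45%, with no overlap, while the translation group and ABCE1 took up less of the sum. ABCE1 alone was 18.4% of the sum in the median SMAD4-low library and 10.3% in the median SMAD4-high library. ABCG2 alone was 0.483% and 9.87%. With both rows that the reference does not name added, the medians of the export share were 20.6% and 45.6%.

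**Figure D4:**
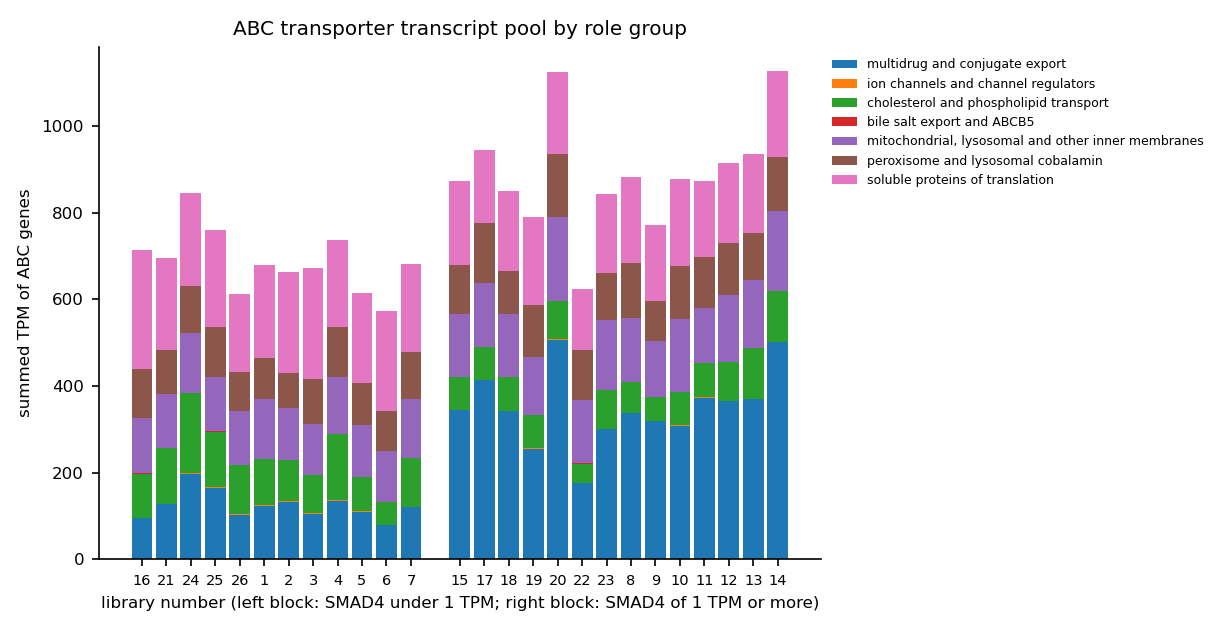
Summed TPM of the members by role group (stacked, y axis from 0) in each library, SMAD4-low libraries on the left and SMAD4-high on the right. The export group (lowest block) sums to 78.8 to 196 TPM on the left and 175 to 506 TPM on the right, and library 22 has the smallest export block among the SMAD4-high libraries.

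Among transporters of cholesterol and phospholipid, 14 of 17 genes were tested, of which 6 were called higher and 3 lower in the SMAD4-low libraries, where 20% and 19% of all genes were. The median absolute log2 fold change was 2.03, above that of any other role group with more than 1 gene tested and above the 0.74 of all genes. ABCA3 (chromosome 16, 2275881 to 2340746), the lipid pump of lamellar bodies in surfactant-producing cells, was at 0.0591, 0.13 and 0.398 TPM in the SMAD4-low libraries. It was at 6.70, 20.8 and 37.3 TPM in the SMAD4-high libraries. The ranges lay far apart, and this was the largest change of the family (log2 fold change -7.04 ± 0.30, adjusted p = 6.93e-18). ABCA4, the retinoid flippase of photoreceptors, was lower as well, at a median of 0.0974 against 1.55 TPM (log2 fold change -2.86 ± 0.57), with library 25 at 1.55 TPM inside the SMAD4-high range. ABCA8 was under 1.19 TPM in every library and was called lower (log2 fold change -1.19 ± 0.41).

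ABCA1 (chromosome 9, 104781006 to 104928155), which loads cholesterol and phospholipid onto apolipoprotein A-I, was at 5.19, 11.5 and 24.6 TPM in the SMAD4-low libraries. It was at 0.0725, 0.302 and 5.34 TPM in the SMAD4-high libraries. Only library 18 of the SMAD4-high set reached the SMAD4-low range, and ABCA1 was 16-fold higher in the SMAD4-low set (log2 fold change 4.0 ± 0.57, adjusted p = 4.3e-07). ABCG1 (chromosome 21, 42199689 to 42297244), which passes cholesterol to HDL, was also higher, at a median of 2.68 against 0.229 TPM (log2 fold change 3.32 ± 0.50, adjusted p = 1.01e-06). It varied 152-fold among the SMAD4-low libraries, from 0.042 TPM in library 6 to 6.37 TPM in library 16. ABCA12 (chromosome 2, 214931542 to 215138626), a lipid transporter of the epidermal barrier, was at 0.54, 2.36 and 5.52 TPM in the SMAD4-low libraries. It did not exceed 0.092 TPM in the SMAD4-high libraries (log2 fold change 6.03 ± 0.43, adjusted p = 4.04e-13). Against a set so near 0 the size depends on the scale, and on log2(TPM + 1) with limma the change was 1.65 for ABCA12 and -4.18 for ABCA3. ABCA2 (chromosome 9, 137007234 to 137028915), a transporter of late endosomes and lysosomes, was at a median of 34.1 against 17 TPM. Its log2 fold change of 0.98 ± 0.17 (adjusted p = 7.21e-06) lay just under the limit, and it was over 1 with DESeq2 (1.01). ABCA5 passed the adjusted p at 0.51, and ABCA7, ABCA13 and ABCG8, a half-transporter of sterols at no more than 0.411 TPM in any library, did not pass.

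ABCA8, ABCA9, ABCA6, ABCA10 and ABCA5 stand side by side on chromosome 17, and the changes were unequal along this cluster. Gaps between neighbours were 19096, 17753 and 5319 bases, and the ends of ABCA10 and ABCA5 overlap. ABCA6 (69078702 to 69141895) was at 1.2, 3.10 and 13 TPM in the SMAD4-low libraries and at most 0.175 TPM in the SMAD4-high libraries (log2 fold change 5.99 ± 0.37, adjusted p = 1.75e-14). ABCA10 (69147214 to 69244846), next to it, was at 5.88, 12.8 and 31.1 TPM against 0.209, 0.76 and 3.05 TPM (log2 fold change 3.87 ± 0.37, adjusted p = 2.06e-10). Neither gene overlapped between the sets, and the functions of both are little known. On their flanks the changes were -1.19 for ABCA8 and 1.00 for ABCA9 on 1 side and 0.51 for ABCA5 on the other. ABCA9 lies at the limit of 1 and was lost under several settings. ABCC1 and ABCC6, 6308 bases apart on chromosome 16, moved in opposite directions (-1.71 and 1.84).

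Among ion channels and channel regulators, CFTR (chromosome 7, 117287120 to 117715971), the chloride and bicarbonate channel of ductal epithelium, had too few counts to be tested. It was listed at 0 in 1 SMAD4-low and in 9 SMAD4-high libraries. It reached 1 TPM in 7 of 12 SMAD4-low libraries, up to 2.93 TPM in library 26, and in 4 of 14 SMAD4-high libraries, up to 2.90 TPM in library 11. The ranges of the sets were nearly the same, and these levels rest on at most 51.3 estimated counts. ABCC9, a sulfonylurea receptor, was called higher in the SMAD4-low libraries at 0.136 to 0.598 against 0.018 to 0.107 TPM (log2 fold change 2.59 ± 0.29), and ABCC8 was not tested. ABCB11, the bile salt export pump of hepatocytes, was called higher at a median of 0.551 TPM against 0.00156 TPM (log2 fold change 2.55 ± 0.69), with 7 SMAD4-high libraries at 0. ABCB5, ABCB4, ABCD2, ABCG4 and ABCG5 were not tested and stayed under 1 TPM in every library.

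Members of inner membranes and of translation had the smallest median absolute log2 fold changes of the role groups, 0.43 and 0.47. Of 5 genes of mitochondria, lysosomes and other inner membranes, ABCB9 (chromosome 12, 122920951 to 122981649), a peptide transporter of lysosomes, was called. It was at 5.38, 7.65 and 11.6 TPM in the SMAD4-low and at 22.1, 35.6 and 56.5 TPM in the SMAD4-high libraries, with no overlap (log2 fold change -2.18 ± 0.14, adjusted p = 3.29e-14). The other 4 passed the adjusted p with changes under 1, among them ABCB6 (0.43), which was higher, and ABCB8 (-0.48) and ABCB10 (-0.22), which were lower. In the peroxisome and cobalamin group, ABCD4, which exports cobalamin from lysosomes, was called higher at a median of 38.4 against 16.4 TPM (log2 fold change 1.18 ± 0.12, adjusted p = 1.26e-09). ABCD3 did not pass, with an interval from -0.29 to 0.12.

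None of the 4 soluble proteins of translation was called, and all 4 passed the adjusted p, as 76.7% of all genes did. ABCE1 was at 104, 128 and 164 TPM in the SMAD4-low and at 64.6, 92.3 and 106 TPM in the SMAD4-high libraries (log2 fold change 0.51 ± 0.08, adjusted p = 2.52e-06). ABCF3 was higher by 0.43, and ABCF2 and ABCF1, of which ABCF1 acts in translation initiation, were lower by 0.37 and 0.81 on the log2 scale. ABCF2 divided reads with the read-through gene ABCF2-H2BK1 (r = -0.57), and the sum changed by -0.41. ABCF1 had a quantification error, as described for ABCC4, of 0.20 in the SMAD4-low and 0.15 in the SMAD4-high libraries. No row met the limits for dividing reads with ABCF1, but a division among several rows was not tested, so its level and change are uncertain.

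Regulators and partners were taken from lists of genes known to act on the family. Of 18 regulators, 12 were tested, 3 of which were called higher and 1 lower in the SMAD4-low libraries, beside 38.9% of all genes called. RXRA, the partner of the oxysterol receptors in driving ABCA1 and ABCG1, was at a median of 78.5 against 12.5 TPM (log2 fold change 2.48), NR1H2, an oxysterol receptor, at 75.5 against 35.8 TPM (1.01), and HIF1A at 306 against 56.2 TPM (2.32). NR1H3, another oxysterol receptor, went the other way at 4.47 against 6.40 TPM (-0.45), which passed the adjusted p but was not called. PPARG was called lower, at 10.2 against 31.2 TPM (-1.62). NFE2L2, an activator of several ABCC genes, did not pass (-0.043, median 109 against 108 TPM). Of 19 partners, 14 were tested, 1 of which was called higher and 2 lower, again beside 38.9% of all genes. PEX3, a peroxin that brings proteins into the peroxisomal membrane, was higher (1.48). APOE, which accepts lipid from ABCA1 and ABCG1, was lower at a median of 8.15 against 307 TPM (-4.42), and SCARB1, the HDL receptor, was lower at 63.5 against 209 TPM (-1.79). GSTP1, GCLC and GCLM, which make or use glutathione, were not called. GSTP1 (-0.79) and GCLM (-0.57) passed the adjusted p with changes under 1, both lower in the SMAD4-low libraries, and GCLC (0.30) did not pass.

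The labels did not separate the members. Since SMAD4 went against the label in 7 libraries of each label, a comparison by label need not be one of the 2 lines. VIM and CDH1 likewise differed between the SMAD4 sets without overlap, and each set held both labels. Beyond these genes, which line a library came from was not tested. Between the 14 libraries labelled Panc-1 and the 12 labelled BxPC3, 0 of 37 members were called (0.0% of all genes tested), and 0 had an unadjusted p under 0.05, while 365 of all genes had (2.28%), and DESeq2 called 1 gene and no member. With the SMAD4 set as a covariate, edgeR again called 0 members and 0 genes, and 4 members (ABCA6, ABCA10, ABCA12 and ABCB9) and 1203 genes (7.51%) had an unadjusted p under 0.05. Within the SMAD4-low libraries (7 labelled Panc-1, 5 labelled BxPC3), edgeR called 0 of 36 members (0.0% of all genes tested), and 4 had an unadjusted p under 0.05, a share near the 11.3% of all genes that had one. These were ABCA6, ABCA13, ABCA10 and ABCA12, all with lower estimates in the libraries labelled Panc-1. ABCA6 was at 1.2, 2.42 and 4.38 TPM in these and at 3.09, 5.44 and 13 TPM in those labelled BxPC3 (log2 fold change -1.17, edgeR adjusted p = 0.404), with overlapping ranges. Within the SMAD4-high libraries 0 of 34 members were called (0.0% of all genes tested), and 3 members (ABCB8, ABCB9 and ABCF2) and 691 of all genes (4.56%) had an unadjusted p under 0.05. DESeq2 and limma called no member in either set, while DESeq2 called 11 genes in the SMAD4-low and 0 in the SMAD4-high libraries. For the difference of the label effect between the sets, edgeR called 0 of 39 members, and 3 of them (ABCF3, ABCA8 and ABCB8) and 1344 of 17456 genes had an unadjusted p under 0.05.

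Within a set, SCDCLs differed in most members by more than the error of quantification. The spread was measured as the SD of log2(CPM + 1) between libraries and compared with the SD over resampled estimates of the same library. Of 29 members with a median of at least 1 TPM in the SMAD4-low libraries, 26 had a spread at least 2 times this error, where 90.6% of all genes at this level did. Of 24 such members in the SMAD4-high libraries, 23 did, where 91.4% of all genes did. The shares were near those of all genes. The largest ratios in the SMAD4-low libraries were those of ABCA1 (22.4), ABCA2 (19.4) and ABCC3 (17.1). In the SMAD4-high libraries they were those of ABCG2 (32.4), ABCC3 (27.3) and ABCA3 (20.6). ABCC3 ranked high in both. Among SMAD4-low libraries it ran from 20.1 TPM in library 6 to 107 TPM in library 24, and among SMAD4-high libraries from 24.2 TPM in library 22 to 143 TPM in library 14. ABCG2 varied 10.8-fold among the SMAD4-high libraries, from library 22 to library 20. The smallest spread among them was that of ABCF3 (SD 0.128). The spread was under 2 times the error for ABCC4 (0.798), ABCC6 (1.17) and ABCF1 (1.66) in the SMAD4-low and for ABCF1 (1.42) in the SMAD4-high libraries. With 1 library per SCDCL, a difference between SCDCLs and one between their cultures cannot be told apart.

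**Figure D5:**
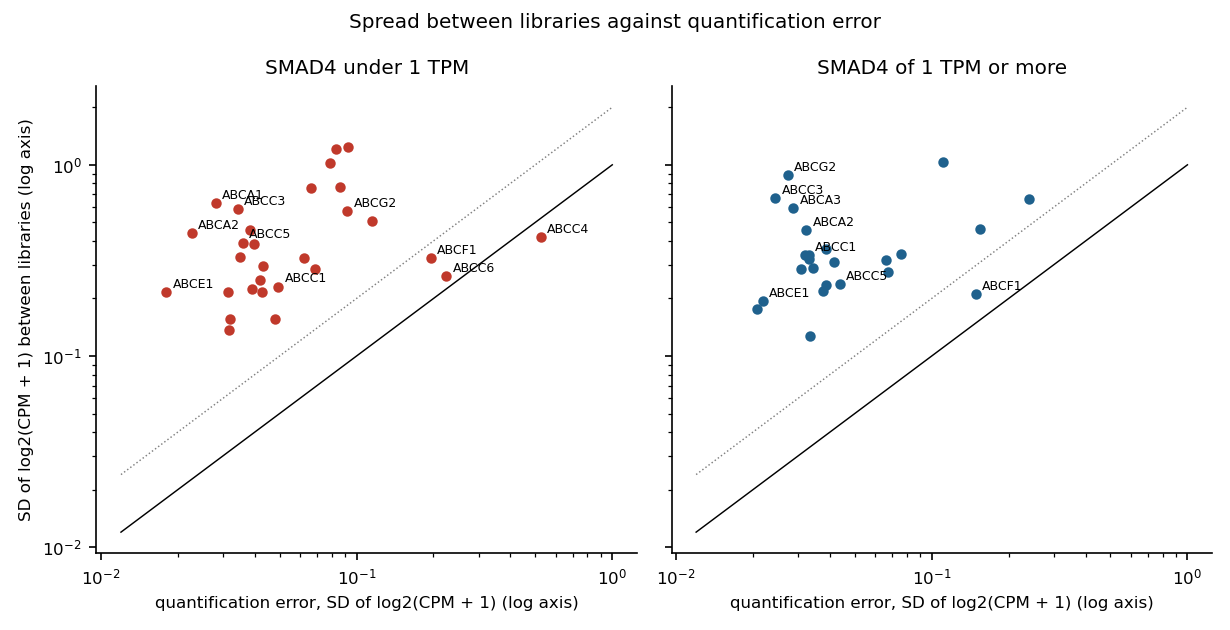
SD of log2(CPM + 1) between libraries (y, log axis) against the SD over resampled estimates within a library (x, log axis), with 1 point per member with a median of at least 1 TPM, in the 12 SMAD4-low libraries (left) and the 14 SMAD4-high libraries (right). The solid line marks equality and the dotted line a ratio of 2; ABCC4, ABCC6 and ABCF1 fall below the dotted line on the left, ABCF1 alone on the right.

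The base composition of the promoter windows went with how widely members were expressed. RefSeq windows were at hand for 36 of the 46 members, and where a gene had several starts the one nearest the 5′ end of the gene was used. Which start was in use in these cells was not tested, so the window of such a gene need not be that of its active start. A window was called CpG-rich with an observed over expected CpG ratio above 0.6 and more than 50% G or C. This held for 19 of the 36 windows. It held for 44.9% of 35116 windows of all genes, which count several starts of 1 gene and are thus not a like base. With 1 window per protein-coding gene, it held for 9381 genes and not for 5942. Of the 19 members with such a window, 14 reached 1 TPM in all 26 libraries, as ABCE1, ABCF3 and ABCC4 did. Of the 17 members without one, 3 did, ABCG2, ABCA2 and ABCB8. Over protein-coding genes as a whole, 73.3% of 9381 with a CpG-rich window and 25.3% of 5942 without one reached 1 TPM in all 26 libraries, so the members lay near all genes in both classes. Among those tested, the median absolute log2 fold change between the sets was 0.58 for 17 members with a CpG-rich window and 1.00 for 13 without, and the ranges overlapped (0.08 to 7.04 and 0.02 to 6.03). ABCA3, the member with the largest change, has a CpG-rich window, and ABCA12 and ABCA6 do not. The motifs were searched on both strands. Their shares of all windows likewise count several starts of 1 gene and are not a like base for the members. The GC box GGGCGG was in 17 member windows and in 42.6% of all windows, and TATAAA was in 6 and in 10.7%. The motif TGACNNNGC, the core of the antioxidant response element, was in 7 member windows, ABCC4, ABCC10 and ABCA3 among them, and in 10.9% of all windows. The motif CACCTG was in 8, the ABCA1, ABCA3 and ABCA12 windows among them, and in 17.5% of all windows.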

How the data were processed

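mRNA was sequenced once from each of 26 SCDCLs. The authors assigned reads to Ensembl release 103 transcripts of GRCh38 with kallisto 0.46.1 and deposited, for each gene and library, TPM, estimated counts (TPM multiplied by mean transcript length, then brought to each library's total), and 30 further sets of estimated counts per library from resampled reads. Symbols and positions came from GENCODE 44, which matched 36315 of 41078 genes and left 4763 unmatched. The members and gene lists were chosen with earlier results of these data known, and the call by SMAD4 uses a measured gene and not a label. Named genes were the gemcitabine-linked ABCC genes, ABCB1, ABCG2, CFTR, the called members with the largest changes and at least 1 TPM in the higher set, and the 3 members with the largest ratio of spread to quantification error per set. Others are named in their role group.

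Estimated counts were rounded. After filterByExpr and TMM normalization, edgeR 4.0.16 (quasi-likelihood, robust) was used in R 4.3.3, with DESeq2 1.42.0 and limma 3.58.1 (on log2(TPM + 1)) as alternatives. The SE was the absolute log2 fold change over the square root of F. Spread used CPM with a pseudocount of 1 and all 30 resampled estimates of each library. Rows that divide reads with a member were those with a correlation of at most -0.5 between their deviations across resampled estimates and a set median of at least 0.5 TPM, and that were unnamed or overlapped the member. Only the row with the lowest correlation was considered for each member. The tests were checked on simulated counts. Library totals of at least 27035724 leave genes under 1 TPM with few counts, and precision there is limited by counting error. Promoter windows came from RefSeq (GRCh38.p14). Analyses in Python 3.11.15 used pandas 2.3.3 and numpy 2.4.6. Gemcitabine response and protein data were not analysed here. Values of 2 members are not reported here, though both are in the counts and sums over the family.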

Additional observations from a re-analysis of the deposited data

Results flagged for a closer look

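In 60 groups of 5 or 7 libraries of 1 label and 1 SMAD4 set, 6 held a library farther from its nearest neighbour than Dixon's test allows at 95%. That limit is set for normally distributed values, while TPM has a floor at 0. ABCG2 was also among the members with the largest spread in the SMAD4-high libraries. ABCA1 was so only in the SMAD4-low libraries, while its library flagged here is SMAD4-high. How many groups chance alone would flag here was not estimated. ABCB1 was at 1.62 TPM in library 16 (SMAD4-low, labelled BxPC3), and the next library was at 0.182 TPM. ABCG2 was at 197 TPM in library 11 (SMAD4-high, labelled Panc-1), and the next was at 124 TPM. CFTR was at 2.90 TPM in the same library 11, and the next was at 1.19 TPM. ABCA1 was at 5.34 TPM in library 18 (SMAD4-high, labelled BxPC3), and the next was at 0.594 TPM. ABCA4 was at 1.55 TPM in library 25 (SMAD4-low, labelled BxPC3), and the next was at 0.209 TPM. ABCA4 was also at 3.77 TPM in library 13 (SMAD4-high, labelled Panc-1), and the next was at 1.72 TPM. In each case the next library is that of the same group. Libraries of the other label in the same SMAD4 set lay nearer in all cases but ABCB1. ABCG2 was at 214 TPM in library 20, above library 11, and ABCA4 was at 3.53 TPM in library 23. ABCA1 was at 2.01 TPM in library 11. Causes were not tested.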

How the results depend on the processing

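The number of members called between the SMAD4 sets was 18, and it was 31 when the limit on the fold change was dropped and the adjusted p alone was used. Across the other settings (DESeq2, DESeq2 size factors in edgeR, library totals only, limma on log2(TPM + 1), no filter, a stricter filter, the label as covariate, a SMAD4 limit of 10 TPM, and rows that share reads summed, the last chosen after seeing the data) it lay between 13 and 20, and between 17 and 19 when each library was left out in turn. Over all genes 6235 of 16008 were called, and 12280 by the adjusted p alone. Limma called 4855 of them, the stricter filter 5483 of 14486, and the fit without a filter 10232 of 29052. The SMAD4 limit of 10 TPM gives the same sets as that of 1 TPM. Limma left out ABCA8, ABCA9, ABCB11, ABCC6 and ABCC9, and the stricter filter tested 29 members instead of 37. No named member changed direction, but limma on log2(TPM + 1) gave smaller changes for members near 0 in 1 set, among them 1.65 for ABCA12, 2.10 for ABCA6 and -4.18 for ABCA3. ABCA2 was called with DESeq2 and with its size factors (1.01 in both) and without library 5, 6, 10, 13, 14, 15, 18 or 26 (up to 1.05), ABCC3 without library 24 (-1.03), and ABCA9 was lost without any of 13 libraries (down to 0.84 without library 1). Called by label, 0 members remained under every setting. The median log2 fold change of all genes was -0.012, 0.012 with DESeq2 size factors and 0.099 without a filter. The counts of members whose spread exceeded 2 times the quantification error, 26 and 23, were the same with the first 5 resampled estimates of each library, and stayed within 1.5 times under a pseudocount of 0.1 and a limit of 3 times. Summing all rows that carry a member's symbol was not run because no other row carries one. The medians of ABCA1, ABCA3, ABCA4, ABCA6, ABCA8, ABCA9, ABCA10 and ABCA12 were under 1 TPM in at least 1 set. So were those of ABCB11, ABCC2, ABCC6, ABCC9, ABCC11, ABCG1, ABCG8 and every member not tested, CFTR included. Counts limit the precision there, also for ABCA3, ABCA12 and ABCA6, the members with the largest changes.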
